A study of Mus musculus with 4 samples.

Results

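Milk protein genes and the luminal regulators of the mammary gland were followed in mouse mammary tumour cells that carried extra copies of the microRNA cluster miR-23b/27b/24. The set held 10 genes with 15 probes, out of 27670 gene names and 41174 probes on the array. It was drawn up by name, as 4 milk proteins (Csn2, Csn3, Wap and Lalba), 2 parts of the prolactin pathway (Prlr and Stat5a) and 4 receptors and transcription factors of luminal cells (Esr1, Pgr, Gata3 and Elf5). All probes whose gene name, or whose RefSeq identifier for a renamed gene, matched were taken. The arrays call Csn2 by its older name Csnb and Csn3 by its older name Csnk.

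The cells were 4TO7, a line from a mammary tumour of a BALB/cfC3H mouse. The miR-23b/27b/24 group was a stable line carrying the cluster in the retroviral plasmid pMSCV, and the vector group a stable line carrying pMSCV-puro alone. Each group had 2 arrays from 2 transfections, so its spread is that between transfections of cultured cells, which may be technical. The medium contained fetal bovine serum, and the labels name no added prolactin, glucocorticoid or oestrogen. RNA of the cells carried the dye Cy5 on all 4 arrays, and a reference RNA pooled from 11 mouse cell lines carried Cy3. The microRNAs themselves were not measured here.

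In the lactating gland, prolactin binds its receptor Prlr on luminal alveolar cells, the kinase Jak2 then activates Stat5a, and Stat5a switches on casein and whey protein genes together with the transcription factor Elf5. Caseins are the phosphoproteins of milk micelles, and kappa-casein, the product of Csn3, keeps the micelles in suspension. Oestrogen receptor alpha (Esr1), the progesterone receptor (Pgr) and Gata3 belong to the hormone-sensing branch of the luminal lineage, and Gata3 is needed to keep luminal cells differentiated.

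The sequences of the overexpressed microRNAs are shown first, with their seeds (bases 2 to 8) in capitals. They come from RefSeq on GRCm38.p6, where both lie on chromosome 13. The cluster also holds miR-23b.
mmu-miR-27b-3p: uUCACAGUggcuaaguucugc
mmu-miR-24-3p: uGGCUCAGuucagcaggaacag

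The array's probe for Csn3, the member with the largest difference between the groups, is given next because that result rests on it. Per the array files its 60 bases match chr5:87862437-87864389 (mm7), a stretch of 1953 bases, so the probe joins bases that lie apart in the genome. The files give no exon or UTR annotation. Capitals mark its first ATG, at position 12.
Csn3 probe: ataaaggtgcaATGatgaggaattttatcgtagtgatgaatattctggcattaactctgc

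The promoters of Csn2 and Wap are shown because both genes are classical prolactin targets, one undetected and the other not called here. Each is the 250 bases before the annotated start, on the minus strand of GRCm38.p6 in RefSeq. That of Csn2 is chr5:87699426-87699675 and that of Wap chr11:6638650-6638899. Capitals mark the STAT5 motif TTCNNNGAA, which reads the same on both strands.
Csn2 promoter: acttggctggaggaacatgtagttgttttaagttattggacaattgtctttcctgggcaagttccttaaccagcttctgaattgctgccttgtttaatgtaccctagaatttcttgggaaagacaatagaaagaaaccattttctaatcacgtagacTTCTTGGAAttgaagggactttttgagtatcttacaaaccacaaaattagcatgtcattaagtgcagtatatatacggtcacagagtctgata
Wap promoter: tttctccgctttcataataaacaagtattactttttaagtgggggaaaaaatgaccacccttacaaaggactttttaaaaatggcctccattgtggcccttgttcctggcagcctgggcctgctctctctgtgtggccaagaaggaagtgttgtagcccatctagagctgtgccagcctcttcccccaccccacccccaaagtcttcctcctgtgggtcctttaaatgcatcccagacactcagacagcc

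Promoters of 9 members, 14 in all with alternative starts, were available, each from 250 bases before to 50 bases after the start. No Csn3 promoter was among them, so Csn3 was not searched for either motif. The STAT5 motif stood in 3 of the 14, while 8.30% of all 32851 promoters of the same length held it. These were the Csn2 promoter, at 93 to 85 bases before the start, 1 of 2 Esr1 promoters, at 188 to 180 bases, and 1 of 3 Prlr promoters, at 110 to 102 bases. The GATA motif, searched as AGATAA and its reverse complement TTATCT, stood in 0 of the 14 and in 11.2% of all promoters. A match describes the letters alone.

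Between 69.8% and 74.8% of probes on an array were well above background in Cy5, by the flag that Feature Extraction sets for each spot. The lowest Cy5 signal with that flag lay between 28.4 and 38.1 intensity units. Cy5 and Cy3 signals below are Feature Extraction's processed signals, corrected for background and dye, and the log2 ratios were rebuilt from the raw signals. Across genes these ratios had a correlation of 0.952 for the pair of miR-23b/27b/24 arrays and of 0.887 for the pair of vector arrays, against 0.629 to 0.725 for pairs from different groups. The 4 arrays limit the precision of each value. Of 20500 genes tested, 978 were higher and 951 lower in miR-23b/27b/24 cells at an adjusted p under 0.05 in limma, and the median log2 fold change over all of them was -0.03. In all 1929 genes were called, against 635 where local backgrounds marked as outliers were kept as measured in place of the array's median. Leaving out arrays gave 214 and 236 without miR-23b/27b/24 replicate 1 and 2, and 4584 and 2724 without vector replicate 1 and 2.

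The comparison asked which of these transcripts differ in cells with the cluster. Kappa-casein (Csn3) was 10.9-fold higher in miR-23b/27b/24 cells, while beta-casein (Csn2) was not detected in either group, and Wap and Lalba did not pass the test. Oestrogen receptor alpha (Esr1) fell by 2.49 on the log2 scale and Stat5a fell by 0.65. Prlr and Gata3 were well above background on all 4 arrays and did not pass the test. Elf5 and Pgr, like beta-casein, were not well above background on any array.

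In counts, 7 of the 10 members passed the filter on dim probes, 1 was called higher (Csn3) and 2 were called lower (Esr1 and Stat5a). Of all genes tested, 9.41% were called in either direction, 4.77% higher and 4.64% lower. The ratios of the groups did not overlap for 5 members, higher for Csn3 and Lalba and lower for Esr1, Stat5a and Prlr, and the same held for 59.8% of all genes tested, 27.4% higher and 32.3% lower. With 2 arrays a group, separation alone is therefore common. The other 3 members had no probe that passed, and 7 of the 15 probes were well above background on no array.

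**Figure D1:**
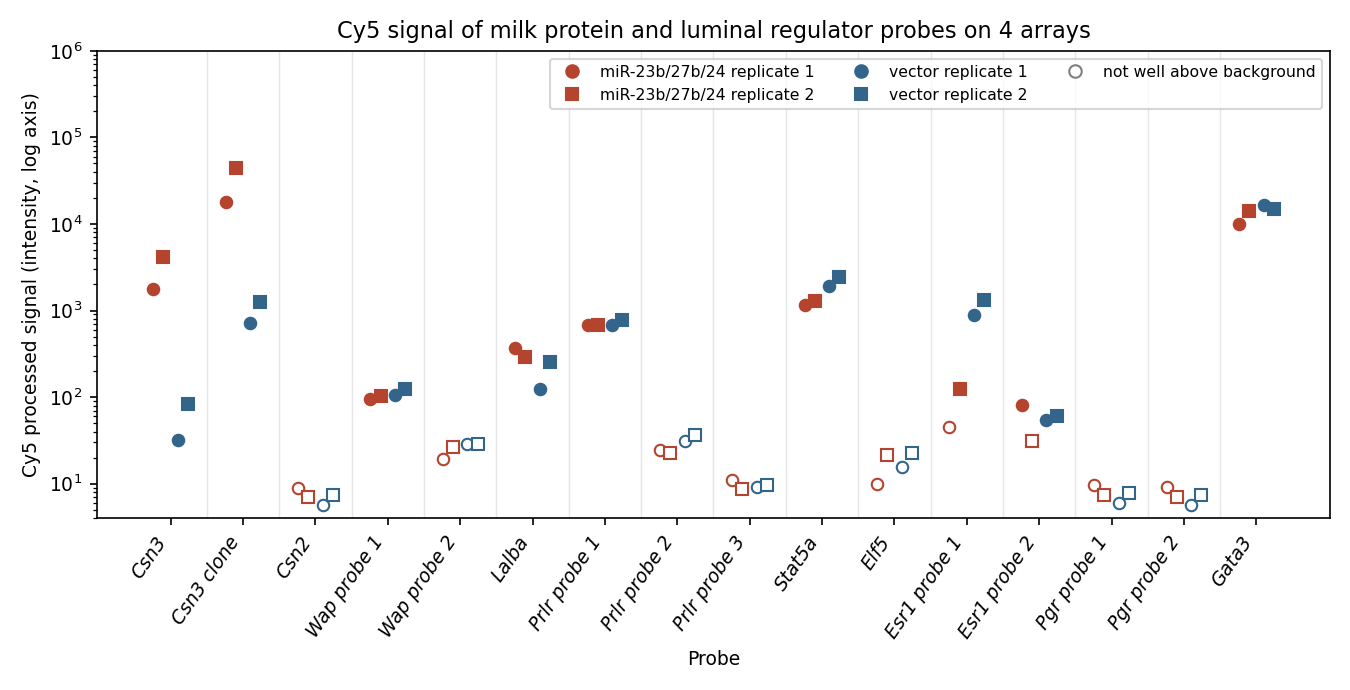
Cy5 processed signal in intensity units, on a log axis, for each of the 15 probes and a kappa-casein clone probe, with 1 point per array (red for miR-23b/27b/24, blue for vector, open where a share under 0.5 of its spots was well above background). The Csn3 and clone points of the miR-23b/27b/24 arrays lie far above those of the vector arrays, the order is the opposite for Esr1 probe 1, and all points of Csn2, Elf5 and Pgr are open.

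Csn3 was the only milk protein gene among the members that was called. Its Cy5 signal was 1760 and 4100 in miR-23b/27b/24 cells, against 31.9 and 82.4 in vector cells. Both miR-23b/27b/24 arrays were bright and both vector arrays dim, the dimmer of them close to the lowest signal well above background, and the flag was set on all 4. The log2 ratio to the reference was 3.37 and 4.30 in miR-23b/27b/24 cells, against 0.10 and 0.68 in vector cells. It averaged 3.83 ± 0.66 in miR-23b/27b/24 cells and 0.39 ± 0.41 in vector cells (SD, n = 2 arrays each). The log2 fold change was 3.45 ± 0.37 (SE, 95% interval 2.48 to 4.42, limma adjusted p = 0.0131), a 10.9-fold difference. Without miR-23b/27b/24 replicate 2, the brighter array, it was 2.98 and missed the threshold (limma adjusted p = 0.0515).

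The Cy3 channel of the Csn3 probe moved with this result, although it held the same reference RNA on every array. Its Cy3 signal was 66.6 and 102 on the miR-23b/27b/24 arrays, against 17.4 and 16.6 on the vector arrays. On vector replicate 2 it was not well above background, so the reference level below the ratio was measured on 1 of the 2 vector arrays, and the setting that asks for both channels on all 4 arrays left Csn3 untested. Over all genes tested the Cy3 difference had a median of -0.05 on the log2 scale, with 95% of genes between -0.46 and 0.20, and 0.205% of genes differed by more than 1. The ratio divides by this channel. It differed 10.9-fold between groups, and the processed Cy5 signal alone 52.4-fold. These folds are not on the same scale, since the ratio was rebuilt from raw signals with its own background correction. In the alternative setting that used the Cy5 channel alone, the log2 fold change of Csn3 was 4.04, beside 3.45 for the ratio. The part of the Cy3 difference in the result was not tested.

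A further probe, annotated in the files as a kappa-casein cDNA clone from lactating mammary gland, lies on the same chromosome at chr5:87869188-87869247 (mm7). It carries no Csn3 symbol, was not taken by the rule, and was chosen after its values were seen. Its Cy5 signal was 17700 and 44400 in miR-23b/27b/24 cells, against 716 and 1260 in vector cells, well above background on all 4 arrays. The log2 ratio was 3.99 and 4.86 in miR-23b/27b/24 cells, against 0.30 and 0.75 in vector cells, again with no overlap. The difference on the log2 scale was 3.90 ± 0.34 (SE, 95% interval from 3.03 to 4.77, adjusted p = 0.00784 in limma), or 14.9-fold. Here too the Cy3 signal was higher on the miR-23b/27b/24 arrays, at 999 and 1410, against 505 and 605 on the vector arrays. That is a 2.15-fold difference in Cy3, beside 29.5-fold in Cy5.

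**Figure D2:**
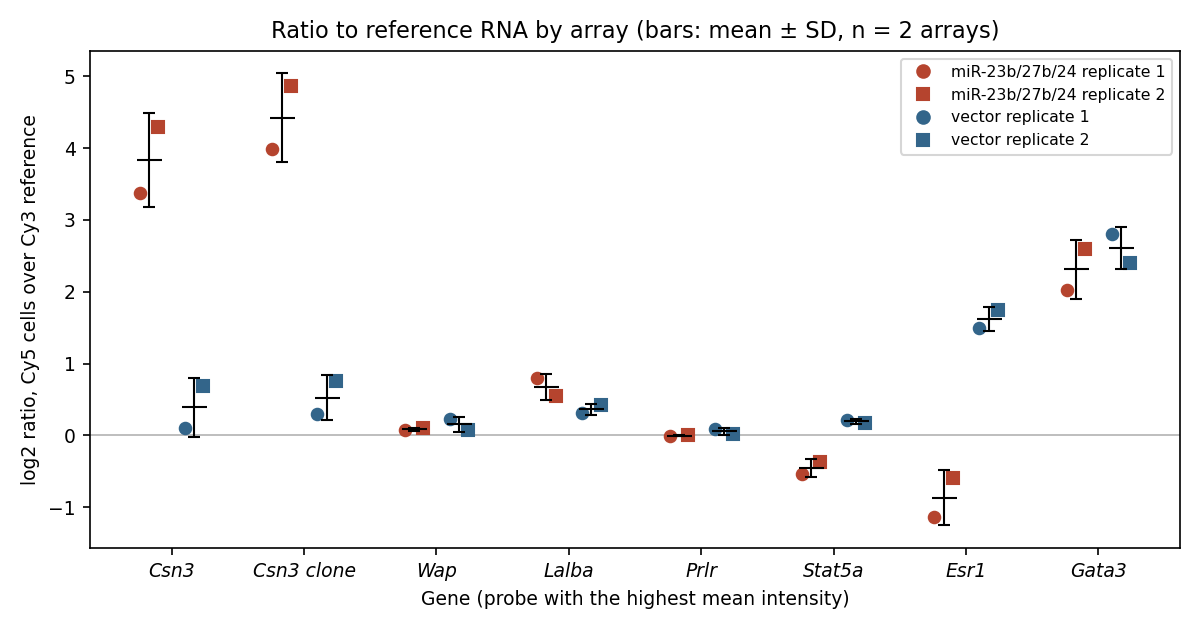
Log2 ratio of Cy5 (cells) over Cy3 (reference RNA) for the 7 members that passed the filter and the kappa-casein clone probe, with 1 point per array and bars for the mean and SD (n = 2 arrays per group). The miR-23b/27b/24 points of Csn3 lie at 3.37 and 4.30 above vector points at 0.10 and 0.68, those of Esr1 at -1.14 and -0.60 below vector points at 1.5 and 1.74, and the points of Wap and Gata3 overlap between groups.

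Csn2, which encodes beta-casein and lies in the same casein gene cluster as Csn3 on chromosome 5, stood at background. The Cy5 channel gave 8.88 and 7.02 in miR-23b/27b/24 cells, against 5.75 and 7.49 in vector cells, with the flag set on no array. The probes for the alpha-casein genes Csn1s1, Csn1s2a and Csn1s2b and for the milk mucin Glycam1 were also well above background on no array. Of the 5 casein genes listed, kappa-casein alone had a measured level, and a low level of the others was not detectable by their probes.

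Wap, the whey acidic protein of rodent milk, was well above background by 1 of its 2 probes. That probe had a Cy5 signal of 94.9 and 103 in miR-23b/27b/24 cells, against 106 and 125 in vector cells. The log2 ratios overlapped between groups, at 0.07 and 0.10 in miR-23b/27b/24 cells and 0.23 and 0.08 in vector cells. The log2 fold change of -0.07 had a 95% interval from -0.40 to 0.26 (limma adjusted p = 0.775), and the second Wap probe was not well above background in Cy5 on any array.

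Lalba, the alpha-lactalbumin that makes lactose synthase of a galactosyltransferase, did not pass the test. Its probe gave a Cy5 signal of 374 and 291 in miR-23b/27b/24 cells, against 124 and 257 in vector cells. The log2 ratio was 0.80 and 0.55 in miR-23b/27b/24 cells, against 0.31 and 0.42 in vector cells. The groups did not overlap, and the log2 fold change was 0.31 with a 95% interval from -0.07 to 0.68 (limma adjusted p = 0.256). Its Cy3 signal was also higher on the miR-23b/27b/24 arrays, at 143 and 141, against 71.4 and 132 on the vector arrays.

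The prolactin receptor was measured by 1 of its 3 probes. That Prlr probe had a Cy5 signal of 677 and 677 in miR-23b/27b/24 cells, against 686 and 775 in vector cells. Its log2 ratios were -0.01 and 0.00 in miR-23b/27b/24 cells, against 0.09 and 0.02 in vector cells. These values separate the groups by a few hundredths, and the log2 fold change of -0.06 had a 95% interval from -0.36 to 0.25 (limma adjusted p = 0.81). The other 2 Prlr probes were not well above background in Cy5 on any array.

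Stat5a, the transcription factor that carries the prolactin signal to milk protein genes, was lower. Its probe had a Cy5 signal of 1160 and 1300 in miR-23b/27b/24 cells, against 1940 and 2450 in vector cells, from a probe at chr11:100993869-100993928 (mm7). The log2 ratio was -0.54 and -0.37 in miR-23b/27b/24 cells, against 0.22 and 0.17 in vector cells, so each miR-23b/27b/24 array lay below both vector arrays. The log2 fold change was -0.65 ± 0.13 (SE, 95% interval -0.99 to -0.32, limma adjusted p = 0.0471), a 1.57-fold difference, with n = 2 arrays per group. This call stood close to the threshold and was missed under 9 of 16 alternative settings, at log2 values between -0.76 and -0.57 in all of them. It was missed without miR-23b/27b/24 replicate 1 (adjusted p = 0.313), without miR-23b/27b/24 replicate 2 (0.182), without vector replicate 2 (0.0513) and with the replicate number as a block (0.0775), all in limma.

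Elf5, the ETS factor that with Stat5a drives the alveolar programme, was at background. The Cy5 channel gave 9.92 and 21.3 in miR-23b/27b/24 cells, against 15.6 and 22.7 in vector cells, with the flag set on no array. The groups overlapped, and no fold is given for a probe at background in both.

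Among 20 tested genes of prolactin receptor, JAK and STAT5 signalling, of 22 listed, 1 was called higher and 3 lower. Of all genes tested, 9.41% were called. The median log2 fold change of the list was -0.17 beside -0.03 for all genes tested. Stat5a was 1 of the 3 lower genes. Ghr, the growth hormone receptor, which also signals through Jak2 and Stat5, had a log2 fold change of -1.14 (limma adjusted p = 0.0134) on its brightest probe, while its other probes lay between -0.93 and 0.11. Nmi, an interactor of Myc and STAT proteins, had -0.76 (adjusted p = 0.0463). Socs1, a feedback inhibitor of JAK kinases, had 0.78 (adjusted p = 0.0486). Nmi and Socs1 each missed the threshold in 10 of 16 alternative settings. Jak2 had a log2 fold change of -0.48 and Stat5b, the close paralog of Stat5a, -0.21, and the Stat5 target Cish -0.14, none of which passed the test (adjusted p of 0.235, 0.42 and 0.814). Under 5 other ways of treating background, scaling or the deposited values the list had 1 called gene in place of 4, and with the replicate block 2. It had 0 without either miR-23b/27b/24 array and 1 without vector replicate 2.

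Esr1 was the member with the largest fall. The probe that represents it, at chr10:5343241-5343300 (mm7), is printed in 10 spots on each array. Its mean Cy5 signal was 45.3 and 125 in miR-23b/27b/24 cells, against 879 and 1340 in vector cells. On miR-23b/27b/24 replicate 1 only 4 of 9 usable spots were well above background, and on the other 3 arrays 10 of 10 were, so the gene passed the filter through the vector arrays. The Cy3 signal was even, at 222 and 216 on the miR-23b/27b/24 arrays and 218 and 264 on the vector arrays. The log2 ratio was -1.14 and -0.60 in miR-23b/27b/24 cells, against 1.5 and 1.74 in vector cells. Within an array the spots of this probe had an SD of log2 ratio between 0.06 and 0.13. These spots repeat the measurement of the same RNA, so their SD does not measure the spread between transfections.

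The mean log2 ratio of Esr1 was -0.87 ± 0.38 in miR-23b/27b/24 cells and 1.62 ± 0.17 in vector cells (SD, n = 2 arrays each). The log2 fold change was -2.49 ± 0.22 (SE, 95% interval -3.07 to -1.91, limma adjusted p = 0.00833), a 5.62-fold difference in which the miR-23b/27b/24 level was well above background on 1 of its 2 arrays. The size depended on how background was treated. It was -3.72 in the authors' deposited value table and -3.74 with Feature Extraction signals and loess. It was -1.82 with outlying local backgrounds kept and missed the threshold (limma adjusted p = 0.0956). Without each array in turn the log2 fold change of this probe lay between -2.76 and -2.22. A second Esr1 probe, at chr10:5345231-5345290 (mm7), had a Cy5 signal of 80.4 and 31.5 in miR-23b/27b/24 cells, against 53.8 and 61.3 in vector cells. Its ratios did not separate in size as those of the first probe did, with a log2 fold change of -0.14 (limma adjusted p over all probes = 0.527). The mean of both probes gave -1.31. The second probe was dim in vector cells too, and not well above background on miR-23b/27b/24 replicate 2. The size of a fall as large as that of the first probe could therefore not be measured with it. On miR-23b/27b/24 replicate 1, however, it was well above background and brighter in Cy5 than on both vector arrays. Its Cy3 signal there was also higher, at 78 against 39.9 and 48 on the vector arrays. The 2 probes thus differed, and the reason was not tested.

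Pgr, an oestrogen-induced gene in mammary epithelium, was at background by both of its probes. Their Cy5 signals lay between 6.95 and 9.57 in miR-23b/27b/24 cells, against 5.65 to 7.86 in vector cells. Gata3 was well above background on all 4 arrays. It had a Cy5 signal of 10100 and 14100 in miR-23b/27b/24 cells, against 16600 and 15000 in vector cells, and its log2 ratio was 2.02 and 2.60 in miR-23b/27b/24 cells, against 2.81 and 2.40 in vector cells. The groups overlapped, and the log2 fold change of -0.29 had a 95% interval from -0.96 to 0.38 (limma adjusted p = 0.534).

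Of 22 genes listed as oestrogen and progesterone receptors and their partners, 18 were tested, with 2 called higher and 2 lower. The share called of all genes tested was 9.41%. The median log2 fold change of the list was -0.12 beside -0.03 for all genes tested. Esr2, Pgr and the oestrogen target Greb1 were well above background on no array. With Esr1, the lower genes included Foxa1, a pioneer factor for oestrogen receptor binding. Cy5 signals of Foxa1 were 149 and 147 in miR-23b/27b/24 cells, against 492 and 596 in vector cells, and its log2 fold change was -0.99 (limma adjusted p = 0.0159). The higher genes were Ncoa3, a steroid receptor coactivator, with 1.62 (adjusted p = 0.00616), whose other probes lay between 0.24 and 1.44, and Igfbp4, which binds insulin-like growth factors, with 1.05 (adjusted p = 0.0234). The oestrogen targets Areg and Tff1 had log2 fold changes of -0.12 and 0.07 and did not pass the test (adjusted p of 0.833 and 0.77). The list had 1 called gene without either miR-23b/27b/24 array and 2 with every local background as measured.

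**Figure D3:**
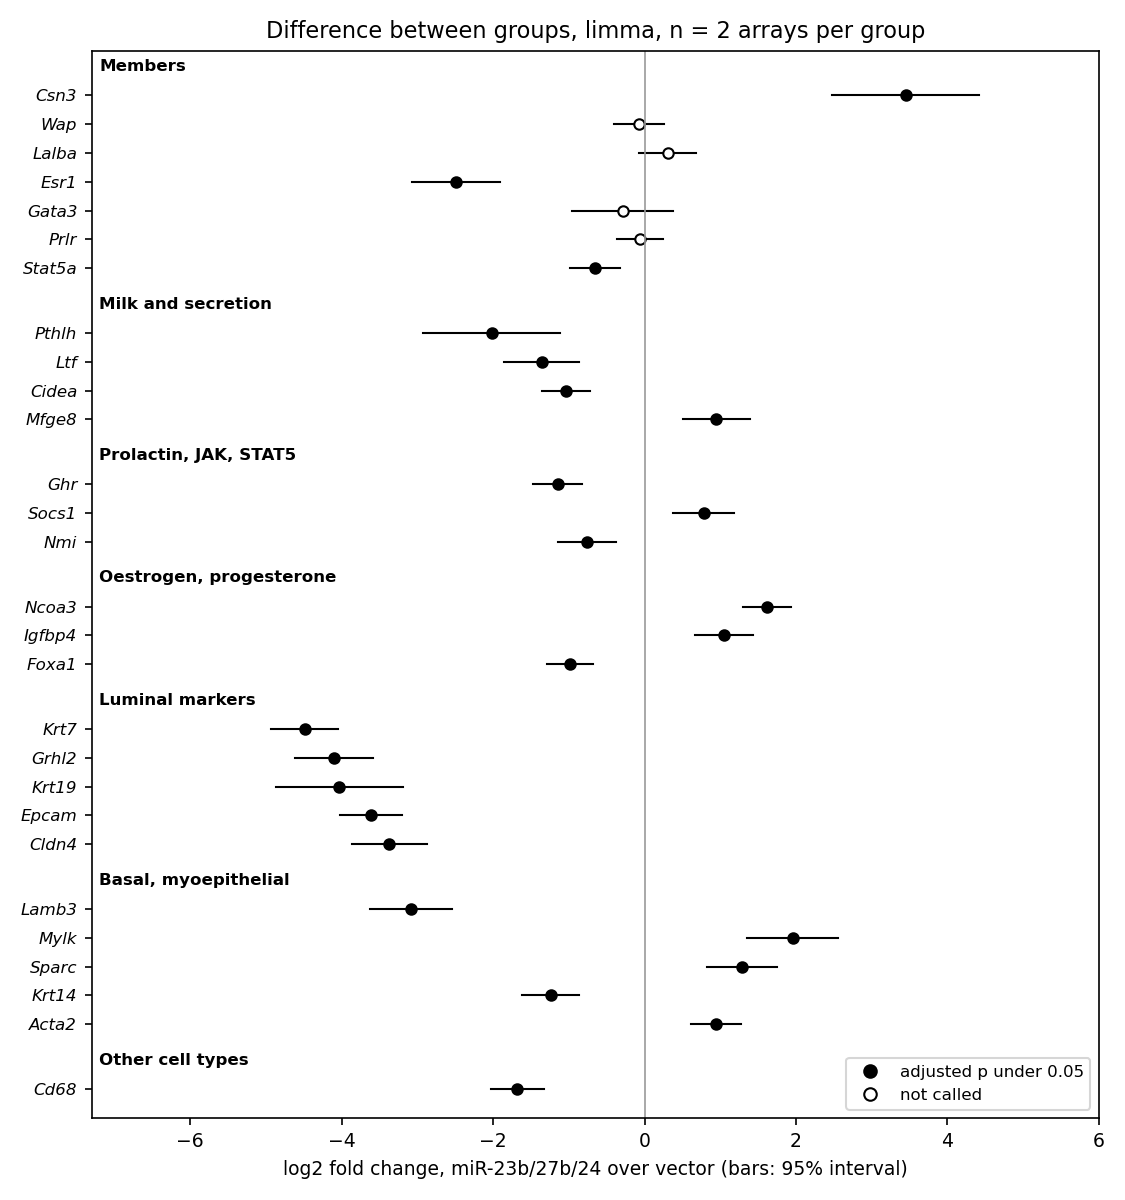
Log2 fold change, miR-23b/27b/24 over vector, with its 95% interval from limma (n = 2 arrays per group), filled where the adjusted p was under 0.05. Drawn are the 7 members tested and, per list, up to 5 called genes with the largest difference. Csn3 lies at 3.45, Esr1 at -2.49 and Stat5a at -0.65. The luminal markers shown, picked for their large difference, lie between -4.49 and -3.37. Of all 17 luminal markers tested, 4 had positive and 13 negative values.

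By count, other milk and secretion genes did not follow Csn3 as a group. Of 22 listed, Csn3 among them, 16 were tested, 2 were called higher (Csn3 and Mfge8) and 3 lower. Of all genes tested, 9.41% were called. The median log2 fold change, Csn3 included, was -0.01 beside -0.03 for all genes tested, with 8 values positive and 8 negative. The summed Cy5 signal of the list was higher, at 1020000 and 862000 in miR-23b/27b/24 cells, against 604000 and 386000 in vector cells. Bright probes such as that of Mfge8 weigh most in this sum. Mfge8, a glycoprotein of the milk fat globule, rose by 0.95 (limma adjusted p = 0.0386). It was missed in 7 of 16 alternative settings, among them every local background as measured (adjusted p = 0.0709), median centring (0.194), the replicate block (0.0537) and leaving out miR-23b/27b/24 replicate 1 (0.216) or 2 (0.197). Cy5 signals of Mfge8 were 153000 and 150000 in miR-23b/27b/24 cells, against 96700 and 85600 in vector cells. The 3 lower genes were Pthlh, the parathyroid hormone-like hormone, with -2.02 (adjusted p = 0.0364), Ltf, the milk iron-binding protein lactoferrin, with -1.36 (adjusted p = 0.0235), and Cidea, a lipid droplet protein used in milk fat secretion, with -1.04 (adjusted p = 0.0162). With every local background as measured these were -0.77, -0.40 and -0.51 and were not called. Spp1, the milk phosphoprotein osteopontin, had 2.45 and did not pass the test (adjusted p = 0.0723). Xdh, Btn1a1 and Plin2, which act in milk fat globule release, had 0.03, -0.08 and -0.61 and did not pass either. The list had 1 called gene without miR-23b/27b/24 replicate 1 and 0 without replicate 2.

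Luminal identity markers were checked beside the members. Of 20 listed, 17 were tested, 1 was called higher (Mfge8, also a milk list gene) and 7 lower. The share called of all genes tested was 9.41%. These markers had a median log2 fold change of -0.94 beside -0.03 for all genes tested. Their summed Cy5 signal was 393000 and 416000 in miR-23b/27b/24 cells, against 767000 and 648000 in vector cells. Bright probes weigh most in such a sum. Among them were Krt7 (1550 and 1060, against 168000 and 148000) and, in the other direction, Mfge8 (153000 and 150000, against 96700 and 85600). The keratins Krt7 and Krt19 had log2 fold changes of -4.49 and -4.03, the transcription factor Grhl2 -4.10, the adhesion molecule Epcam -3.61 and E-cadherin, Cdh1, -2.95 (limma adjusted p between 0.00178 and 0.03). A second probe gave -5.39 for Krt7 and -0.62 for Grhl2. Cldn4 was not well above background on either miR-23b/27b/24 array and was at least 10.3-fold lower there in Cy5, a bound from mean log2 signals after normexp, loess and scaling between arrays in which the lowest signal well above background replaced any lower one, and which is open to dye bias. With every local background as measured its log2 value was -1.75 and was not called (adjusted p = 0.243). The Cy3 signal of Krt7 was also lower on the miR-23b/27b/24 arrays, with a log2 difference of -2.45. Krt8 and Krt18, the keratins that define luminal cells, had 0.30 and -1.4 and did not pass the test (adjusted p of 0.607 and 0.065), and the progenitor markers Kit and Prom1 were on no array well above background. Leaving out miR-23b/27b/24 replicate 1 or 2 gave counts called of 6 and 7, and leaving out vector replicate 1 or 2 gave 13 and 11.

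Basal and myoepithelial markers went both ways. Of 16 listed, 14 were tested, with a median log2 fold change of -0.08. Among them 3 were called higher (Mylk at 1.96, Sparc at 1.29 and Acta2 at 0.95) and 2 lower (Lamb3 at -3.08 and Krt14 at -1.24). Of all genes tested, 9.41% were called. Other probes of Mylk lay between 0.02 and 1.41 and those of Acta2 between -0.25 and -0.02, and the count called was 1 without either miR-23b/27b/24 array. The summed Cy5 signal of this list was 85300 and 78700 in miR-23b/27b/24 cells, against 59600 and 60700 in vector cells. Much of that sum came from Sparc (30300 and 26000, against 14000 and 11400) and Acta2 (26700 and 26600, against 14400 and 14500). It therefore does not describe the list as a whole. Among 19 tested markers of fibroblasts, adipocytes, leukocytes and endothelium, of 21 listed, 0 were called higher and 1 lower (Cd68, a macrophage glycoprotein, at -1.68), with a median of -0.02. That count was 0 without either miR-23b/27b/24 array, 2 without vector replicate 1 and 3 without vector replicate 2. Their summed Cy5 signal was 34900 and 30400 in miR-23b/27b/24 cells, against 31900 and 38000 in vector cells. In RNA of a whole culture, fewer cells of a type and less RNA per cell cannot be told apart, and the part of such shifts in the values of the members was not tested.

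The 3 calls among the members differed in how far they held across processing. The settings are not independent of each other. No filter on dim probes, the mean of the probes, the fit over all probes and the replicate block each left Csn3 at 3.45. The Feature Extraction log ratio and the authors' deposited table both gave it 3.43. Every setting but Cy5 alone divides by the Cy3 signal. Csn3 stayed between 2.98 and 4.04 on the log2 scale over 15 alternative settings and passed in 14 of them. Esr1 lay between -3.74 and -1.31 over 15 settings and also passed in 14. Stat5a held its size but passed in 7 of 16. The kappa-casein clone probe passed in 16 of 16, between 3.46 and 4.88.

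**Figure D4:**
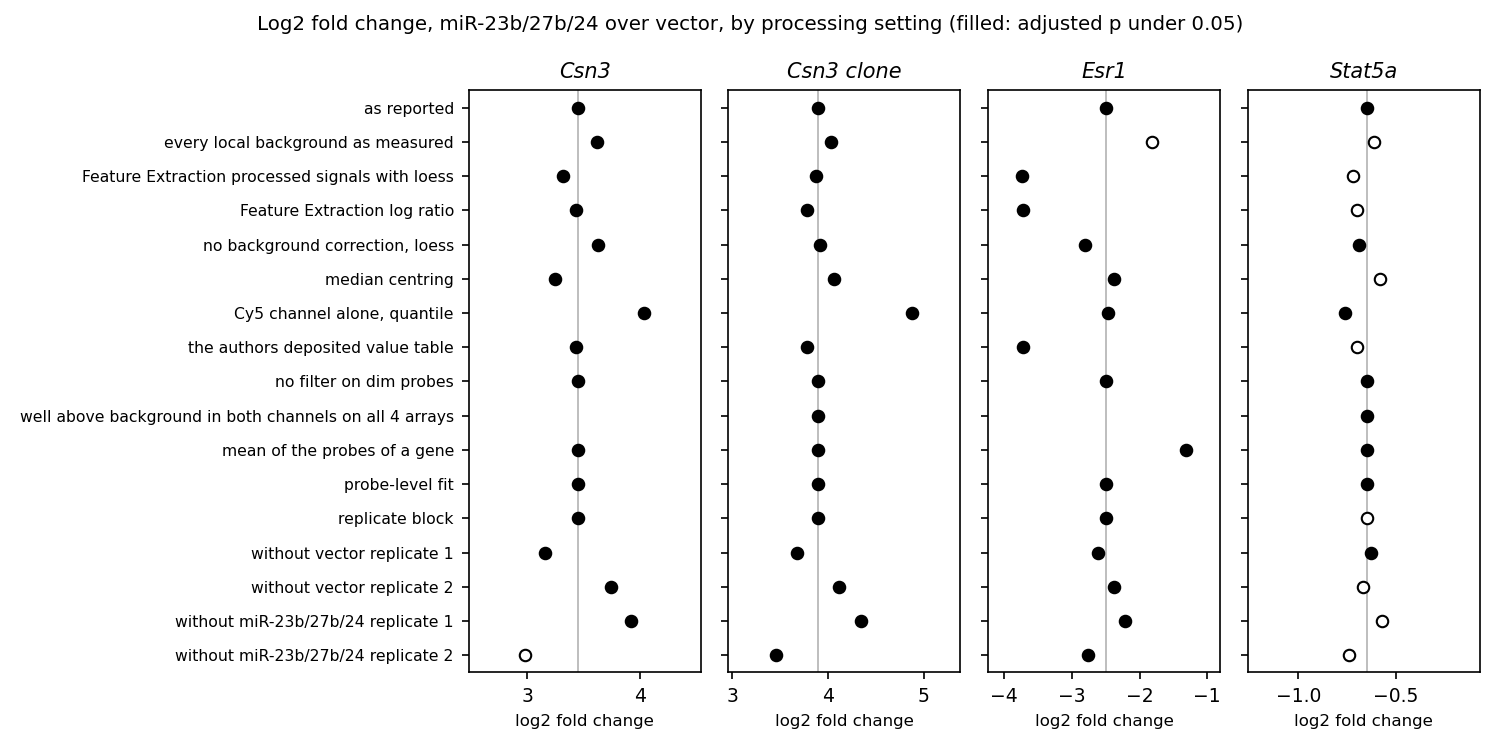
Log2 fold change, miR-23b/27b/24 over vector, of the Csn3 probe, the kappa-casein clone probe, Esr1 and Stat5a as reported (top line, grey guide) and under each alternative setting, filled where the limma adjusted p was under 0.05. Csn3 and the clone probe stay at or above 2.98 and 3.46, Esr1 ranges from -3.74 to -1.31, and Stat5a has 9 open points close to its reported -0.65. A setting with no point left the gene untested.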

How the data were processed

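The 10 members and all gene lists were chosen with earlier results of these data known. Per the file headers, each array file gives the mean signal, local background and processed signal of a spot as intensity and a log10 ratio of Cy5 over Cy3. Agilent Feature Extraction 9.5.3.1 made them, per the submitters' processing notes. The authors also deposited log2 values, whose program was not given in the sources used here. Compared with the scanner files, they were Cy5 over Cy3 centred per probe (Pearson correlation 0.979 to 0.988), with column medians of 0.0221 and -0.0149 (miR-23b/27b/24) and 0.0133 and -0.0172 (vector).

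Ratios were rebuilt in R 4.3.3 with limma 3.58.1, by normexp with an offset of 50 and loess within arrays, control spots having weight 0. Where Feature Extraction marked a local background as an outlier (1782 to 1976 Cy5 spots on an array), the median of the array took its place. An earlier analysis chose this step after seeing results, and it was taken over here. Outlier spots were dropped and the spots of a probe averaged. A probe stayed in if it was well above the Cy5 background on both arrays of either group (30038 probes), and the probe with the highest mean intensity represented a gene. Names of 22951 of the 41174 probes came from accessions, of 6659 from symbols and of 3109 from synonyms in RefSeq GRCm38.p6, and 8455 kept their file name. Groups were compared with lmFit and eBayes, with Benjamini-Hochberg adjusted p under 0.05 over 20500 genes. The test sets a difference against the spread between transfections of a stable line, which eBayes draws toward that of all genes. The text names all members and, per list, up to 5 called genes with the largest difference. Other list genes are examples chosen after their values were seen. Some list genes are not reported here. All arrays share 1 slide and 1 scan without a dye swap. The 16 alternatives varied background, scaling, filter, probe choice and values used, added a replicate block, or left out 1 array.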

Additional observations from a re-analysis of the deposited data

Results flagged for a closer look

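Signal appeared in a channel that the comparison does not test. The Cy3 channel held the same reference RNA on every array, yet the Csn3 probe was brighter there on the miR-23b/27b/24 arrays, by 2.28 on the log2 scale, with no overlap between groups. On vector replicate 2 that Cy3 signal was not well above background, so the size of this difference rests in part on a value at background. The kappa-casein clone probe was brighter in Cy3 by 1.1 on the log2 scale. The part of this in the ratios of both probes was not tested.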

How the results depend on the processing

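Of 461 gene values over the alternatives, 385 stayed on their side of the threshold, 76 kept their direction but no longer passed, and 0 called values turned in sign. The uncalled values of Wap (-0.15 to 0.04) and Prlr (-0.09 to 0.01) lay on either side of 0. With every local background as measured, 635 genes were called in place of 1929, members called went to 1 in place of 3 (Csn3), and list counts were 2 for milk, 1 for prolactin signalling, 2 for oestrogen and progesterone, 3 for luminal and 3 for basal markers, in place of 5, 4, 4, 8 and 5. Median centring gave 1263 genes, 1 for prolactin signalling and 3 for basal markers. Feature Extraction signals with loess, the Feature Extraction log ratio and the authors' deposited table each gave 1 for prolactin signalling. Requiring both channels well above background on all 4 arrays left 5 members tested and 1 called. Leaving out 1 array gave 214 to 4584 genes (214 and 236 without miR-23b/27b/24 replicate 1 and 2, 4584 and 2724 without vector replicate 1 and 2) and 1 to 3 members, with 1 without miR-23b/27b/24 replicate 2. List counts then ran from 0 to 7 for milk, 0 to 5 for prolactin signalling, 1 to 6 for oestrogen and progesterone, 6 to 13 for luminal, 1 to 7 for basal and 0 to 3 for other cell types; each low came without 1 of the miR-23b/27b/24 arrays and each high without 1 of the vector arrays. The spread of a lone array is taken from the other group. The replicate block gave 1740 genes (1464 shared) and 2 for prolactin signalling. The numbers only name arrays, since deviations of same-numbered arrays correlated at 0.047 over 20500 genes and the series ties no number to a shared day. The causes of these differences were not tested. Signals near background limit Csn2, Elf5, Pgr and the miR-23b/27b/24 level of Esr1.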
